A study of Mus musculus with 24 samples.

Results

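Input chromatin is the part of a chromatin preparation that is sequenced without an antibody, and here it was compared between the area at risk (AAR) and the remote myocardium (RM) of the same hearts. All 53386 regions of the deposited table that sets one input against the other were used, with its 12 count columns, 6 AAR Input and 6 RM Input. These 12 libraries are among the 24 of the series; the other 12, precipitated with an antibody to dimethylated lysine 9 of histone H3 (H3K9me2), served as a second readout at a few regions. The libraries were chosen by their label and not by any value. The regions are a limit: they are those of the authors' table, in build mm10, and the genome between them was not measured.

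All groups came from C57BL6 mice aged 12 months that had ischemic preconditioning, 4 cycles of 5 min occlusion of the left coronary artery with 5 min reperfusion, and then 30 min reperfusion. The AAR Input group held the area that lost its flow, in mice 17, 19 and 30 (female) and 22, 23 and 27 (male). The RM Input group held the remote wall of the same 6 mice. No sham heart was analysed here, so both biopsies had been through surgery and preconditioning. Each library came from about 25 mg of tissue, fixed with 1.5% formaldehyde, cut enzymatically with the SimpleChIP Plus kit and read as paired ends after 12 cycles of PCR. A biopsy mixes all cell types of the wall, and since input is genomic DNA its counts cannot show which cell types were present; the sex chromosomes gave the only check of the labels.

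Input serves as the background against which a precipitation is read. In an enzymatic preparation micrococcal nuclease cuts the DNA between nucleosomes, so the recovery of a stretch follows how accessible and how easily cut it is, how well its reads can be placed on the genome, its base composition, and how many copies of it the animal carries. Promoters of many widely expressed genes are CpG islands, stretches rich in the dinucleotide CG that tend to be free of nucleosomes near the start. An X-linked stretch is present in more copies in a female than in a male, and the pseudoautosomal region is the end of X and Y that pairs in male meiosis.

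Input density, used from here on, is the CPM (counts scaled to the total count in the listed regions of the same library) per kb of region, taken over the 32718 regions that overlap no other. The promoters below show CG-rich sequence at the high end of that scale, CG-poor sequence at its middle, and 1 promoter from a region of small p. They are the 250 bases before the annotated start, in lower case with each CG in capitals, 5′ to 3′ in the direction of the gene, from RefSeq for GRCm38.p6, and each lies whole within a listed region. Ets2, encoding an ETS-family transcription factor, had 25 CG in chr16:95702157-95702406 (plus strand) and Zswim7, encoding a recombination factor, had 40 in chr11:62281396-62281645 (minus strand). These 2 had the highest input density of the regions over promoters with 20 or more CG.
Ets2: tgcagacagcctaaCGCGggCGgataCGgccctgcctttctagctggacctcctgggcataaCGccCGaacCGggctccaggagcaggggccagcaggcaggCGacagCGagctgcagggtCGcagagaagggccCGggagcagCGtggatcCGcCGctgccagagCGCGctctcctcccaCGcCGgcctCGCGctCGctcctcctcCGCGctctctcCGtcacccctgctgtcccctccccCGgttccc
Zswim7: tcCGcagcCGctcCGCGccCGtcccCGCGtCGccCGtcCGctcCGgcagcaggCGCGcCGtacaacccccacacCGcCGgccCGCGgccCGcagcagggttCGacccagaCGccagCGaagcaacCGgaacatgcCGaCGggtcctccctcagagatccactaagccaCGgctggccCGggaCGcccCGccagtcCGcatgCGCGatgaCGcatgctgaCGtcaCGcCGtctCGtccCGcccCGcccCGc
Exoc2, encoding a subunit of the exocyst that tethers secretory vesicles, had 0 CG in chr13:30950299-30950548 (minus strand) and Gm46117 had 1 in chr1:91831323-91831572 (minus strand); both lay at the middle of the density range of CG-poor promoters, and near the median of all regions. Of 32851 promoters in the table, 17.9% had 20 or more CG in these 250 bases and 18.8% had 0 or 1.
Exoc2: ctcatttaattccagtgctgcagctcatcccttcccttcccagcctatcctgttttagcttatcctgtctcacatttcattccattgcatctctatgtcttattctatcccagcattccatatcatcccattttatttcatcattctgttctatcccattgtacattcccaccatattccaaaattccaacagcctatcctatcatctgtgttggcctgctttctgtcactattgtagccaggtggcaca
Gm46117: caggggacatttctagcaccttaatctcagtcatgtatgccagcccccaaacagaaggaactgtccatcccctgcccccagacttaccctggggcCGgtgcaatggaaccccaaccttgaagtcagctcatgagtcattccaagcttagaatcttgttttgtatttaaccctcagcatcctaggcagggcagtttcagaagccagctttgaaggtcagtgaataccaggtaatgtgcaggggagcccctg
The promoter of Id2, which encodes an inhibitor of DNA binding by helix-loop-helix factors, is shown because its region was among those of smallest p between the biopsies. It had 18 CG in chr12:25096093-25096342 (minus strand).
Id2: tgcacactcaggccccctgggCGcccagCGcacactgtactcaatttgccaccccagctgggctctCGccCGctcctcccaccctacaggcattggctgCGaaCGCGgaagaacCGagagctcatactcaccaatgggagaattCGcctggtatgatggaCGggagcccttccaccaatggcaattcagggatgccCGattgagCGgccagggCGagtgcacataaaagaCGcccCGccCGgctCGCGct

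Total counts in the listed regions ran from 1286383 to 2478668 in AAR Input and from 1405503 to 1770520 in RM Input. The AAR Input library of mouse 23 was the deepest and stood apart from the other 5 of its group. Compared pairwise, chi-square per region was 1.73 to 2.06 in AAR pairs with mouse 23, 1.23 to 1.58 in other AAR pairs and 1.03 to 1.13 in RM pairs, where sampling of reads alone gives about 1. The RM inputs thus differed from each other by little more than counting noise, while the AAR inputs differed more, with and without mouse 23. No pair of libraries was so alike as to be a copy. Results that rest on mouse 23 are given with and without it.

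No region differed between AAR and RM input at an adjusted p under 0.05. edgeR's quasi-likelihood test with Benjamini-Hochberg adjustment called 0 of 42603 tested regions (0.0%), 0 of 1781 windows of 1 Mb (0.0%) and 0 of 17887 genes (0.0%), the last 2 on summed counts. An unadjusted p under 0.05 was reached by 1157 regions (2.72%), 39 windows (2.19%) and 524 genes (2.93%). DESeq2 also called 0 in each, with 707 regions, 15 windows and 256 genes at an unadjusted p under 0.05. Fitted log2 folds (AAR over RM) had a median SE of 0.16 over regions, and their 95% intervals had a median half-width of 0.32 for regions, 0.11 for windows and 0.23 for genes. Of the fitted region values 99.5% lay within 0.5 of 0 on the log2 scale. These intervals are for single regions and unadjusted: over all regions, fitted differences well above the half-width, given below, did not pass either. The authors' deposited table for the same contrast held 0 regions at FDR under 0.05 and 1421 at p under 0.05.

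The count of small p-values depended on mouse 23. With both libraries of mouse 23 left out, 2567 regions (6.06%), 217 windows (12.2%) and 1258 genes (7.04%) reached an unadjusted p under 0.05. No region or window passed adjustment then, and 1 gene did. That gene was Rnf123, encoding a ubiquitin ligase, with a log2 fold of -0.32 (edgeR FDR 0.00714) without mouse 23 and -0.20 (SE 0.06, edgeR FDR 1.0) with all 6 mice. It is named because it was the only gene to pass in that fit.

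The regions of smallest p, none of which passed (edgeR FDR 1.0 for each), show how large the differences were. Higher in AAR was an intergenic region at chr11:117945200-117946199 near Socs3, which encodes an inhibitor of cytokine signalling, with a log2 fold of 0.87 (SE 0.24). Its AAR input ran from 8.46 to 15.5 CPM (median 11.8) and its RM input from 5.31 to 8.47 CPM (median 6.16), from 8 to 36 counts a library. The groups touched at their edges, and AAR was the higher biopsy in 6 of 6 mice. An intergenic region at chr2:154037600-154038999 near Bpifa2 followed with 15.6 ± 3.25 against 8.88 ± 1.9 CPM (SD, n = 6; log2 fold 0.80). The other regions on that side lay in gene bodies. They were in Kctd5, an adaptor of a cullin ubiquitin ligase (log2 fold 0.80), Eya2, a transcriptional coactivator (0.68), and the potassium channel genes Kcnmb4 (0.66) and Kcnn3 (0.49).

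Lower in AAR was a region at chr17:29634200-29636999 in the body of Rnf8, which encodes a ubiquitin ligase of the DNA break response and here overlaps Gm28043, with a log2 fold of -0.59 (SE 0.15). Its AAR input ran from 15.5 to 25.4 CPM (median 17.8) and its RM input from 23.7 to 37.5 CPM (median 31.0). The groups overlapped only through mouse 23 and mouse 27 in AAR and mouse 22 in RM. The region of Id2 at chr12:25094600-25098799, which holds the promoter printed above and the start, had 21.6 to 32.6 CPM in AAR (median 30.1) and 33.5 to 46.0 CPM in RM (median 38.0), with a log2 fold of -0.43 (SE 0.12). Here the groups did not overlap. The region at chr9:108044800-108052599 over Ip6k1, Gmppb, Rnf123 and Amigo3 had 38.6 ± 4.8 against 50.8 ± 3.77 CPM (SD, n = 6; log2 fold -0.40) and that over the start of Slit1, an axon guidance ligand, 30.7 ± 3.6 against 41.0 ± 4.23 CPM (SD, n = 6; log2 fold -0.42). Taok3, a kinase gene, gave -0.52 and 1600014C23Rik with F630040K05Rik gave -0.51. All 6 were lower in AAR in 6 of 6 mice, as were 1.12% of all tested regions (1.14% were higher in 6 of 6), and in 4 of the 6 the groups did not overlap, as in 0.061% of all tested regions (0.0751% on the higher side). These regions were picked by their p, so those counts describe them and support nothing.

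**Figure D1:**
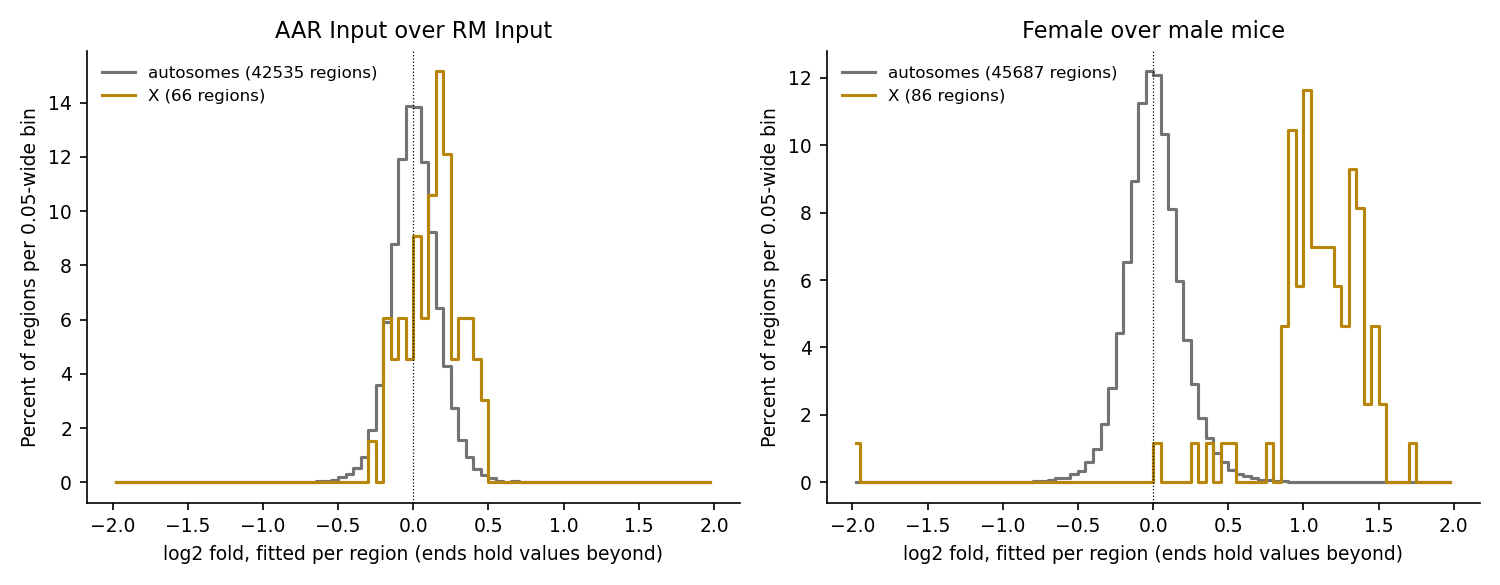
Distribution over regions of the fitted log2 fold in input, AAR over RM (left) and female over male mice (right), as percent of regions per bin, for autosomes (grey) and X (gold). The autosomal curves centre near 0 in both panels, while the 86 tested X regions centre at a median of 1.11 in females over males.

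Genes were also read by group, since counts of input over a gene show how it was recovered and not its expression. None of the members tested passed in any list: 0 of 20 sarcomere genes, 0 of 12 of calcium handling, 0 of 22 of oxidative metabolism, 0 of 32 immediate early and stress genes, 0 of 14 of the hypoxia response, 0 of 22 of the mTOR complexes, 0 of 12 H3K9 methyltransferases and demethylases and 0 of 12 housekeeping genes. Markers of other cells gave the same, with 0 of 15 endothelial and mural, 0 of 9 fibroblast, 0 of 8 leukocyte and 0 of 9 neuronal genes, as did 0 of 13 germ line, 0 of 15 odorant receptor, 0 of 37 Hox and 0 of 164 Zfp genes. The median log2 fold (AAR over RM) of a list ran from -0.05 for fibroblast markers to 0.04, beside 0.00 over 11765 protein-coding genes tested. Members with no tested region are left out of these counts. Of the protein-coding genes, 357 had an unadjusted p under 0.05.

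Input density is described here without a test, with the lists at either end first. The median over the genes of a list was 9.43 CPM per kb for immediate early and stress genes and for the H3K9 enzymes and 9.40 for Hox genes, against 8.99 for all protein-coding genes, 8.50 for germ line genes and 7.96 for odorant receptor genes (15 of 1110). The other lists lay from 8.81 for housekeeping genes to 9.22 for neuronal genes, with sarcomere genes at 8.89. Ier5, an early response gene, had 11.1 ± 2.9 in AAR and 11.4 ± 2.43 in RM (CPM per kb, SD, n = 6), and Klf4, a zinc finger transcription factor, 10.3 ± 0.516 and 11.1 ± 1.24. Hspa1b, a heat shock gene with a near-identical neighbour copy, was the lowest of that list at 2.39 ± 0.765 and 3.16 ± 1.4, and reads that fit both copies may be missing from it. Ttn, encoding the giant sarcomere protein titin, was the lowest sarcomere gene at 8.62 ± 2.57 and 6.76 ± 0.946, and Acta1, encoding skeletal actin, the highest at 10.9 ± 2.28 and 10.3 ± 2.23. Ehmt1, one of the H3K9me2 writers, had 9.68 ± 2.24 and 12.2 ± 1.15, a log2 fold of -0.33 (SE 0.16, edgeR FDR 1.0). No listed region overlapped Nnt, a mitochondrial transhydrogenase gene known for a deletion in one C57BL/6 substrain.

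By gene position, input was densest within 2 kb of a gene end (either end, since strand was not used), a little lower inside gene bodies and lowest between genes, except that gene ends and gene bodies could not be ranked in AAR. Gene ends had 8.85 ± 0.143 CPM per kb in AAR and 8.90 ± 0.0608 in RM, gene bodies 8.78 ± 0.0633 and 8.69 ± 0.0564, and intergenic regions 8.36 ± 0.224 and 8.16 ± 0.123 (SD, n = 6), with 11.0 to 22.6 counts per kb behind them in a library. Within a library, gene ends exceeded intergenic regions by a mean of 5.88% in AAR and 9.07% in RM, in 6 of 6 libraries of each (two-sided exact sign-flip permutation test, p = 0.0312, the smallest that 6 mice allow; adjusted p = 0.0357 over 8 ratio tests). Gene bodies exceeded intergenic regions by 5.08% and 6.55%, also in 6 of 6 libraries of each (exact p = 0.0312, adjusted p = 0.0357). Gene ends exceeded gene bodies by 2.37% in RM (6 of 6 libraries, exact p = 0.0312, adjusted p = 0.0357) and by 0.766% in AAR (3 of 6 libraries, exact p = 0.562, adjusted p = 0.562). Without mouse 23 the AAR value turned, from 0.011 to -0.0007 on the log2 scale. With the median over regions in place of the total over kb, the adjusted p (exact sign-flip permutation) was 0.05 for the contrasts with intergenic regions and 0.0833 for gene ends over gene bodies in RM, none under the threshold.

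With distance from an annotated start, mean density fell in both biopsies, described here without a test and with one step out of order (1 to 5 kb at 8.76 and 8.73, 5 to 10 kb at 8.82 and 8.78 CPM per kb in AAR and RM). Autosomal regions that hold a start had 8.98 ± 0.291 CPM per kb in AAR and 9.12 ± 0.144 in RM, those within 1 kb 8.91 ± 0.151 and 8.89 ± 0.0729, those at 10 to 50 kb 8.71 ± 0.0783 and 8.62 ± 0.062, and those over 100 kb away 8.49 ± 0.297 and 8.31 ± 0.152 (SD, n = 6). In AAR this fall leaned on mouse 23, with 9.51 CPM per kb at starts and 8.02 over 100 kb away. Without it the AAR means were 8.87 ± 0.14 and 8.59 ± 0.209 (SD, n = 5) and the RM means 9.15 ± 0.127 and 8.27 ± 0.13. The AAR libraries of mice 17, 19 and 22 were nearly flat, at 8.94, 8.74 and 8.71 at starts and 8.85, 8.65 and 8.68 over 100 kb away, while those of mice 27 and 30 went from 8.92 and 9.04 to 8.44 and 8.32. Chromosome 18 has no entry in the promoter table, so its regions were measured to no start of their own and left out. Among regions that hold a promoter, mean density rose with the CG count of the 250 bases before the start, also without a test. It was 8.69 ± 0.104 in AAR and 8.76 ± 0.0558 in RM over 774 regions with 0 to 4 CG, and 9.19 ± 0.439 and 9.40 ± 0.238 over 1448 regions with 20 or more. The AAR libraries of mice 19 and 22 were nearly flat, at 8.70 and 8.63 with 0 to 4 CG and 8.75 each with 20 or more. Median width fell from 3000 to 2600 bases between these classes, so width and CG count cannot be told apart here. Of the promoters printed above, the Ets2 region had 17.4 ± 4.39 CPM in AAR and 15.9 ± 4.16 in RM (13.9 CPM per kb over all 12 libraries) and the Exoc2 region 17.6 ± 2.14 and 14.5 ± 2.47 (8.93 CPM per kb). Both were picked by their density, so these values place them on the scale and are no support for an order by CG count.

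The 6 AAR libraries were not alike in this gradient. Over promoters with 20 or more CG the AAR libraries of mice 17, 19, 22, 27 and 30 had 9.26, 8.75, 8.75, 9.12 and 9.31 CPM per kb and that of mouse 23 had 9.93. In RM the same mice had 9.36, 9.32, 9.35, 9.41 and 9.84, and mouse 23 had 9.11. Mouse 23 was thus the highest in AAR and the lowest in RM, and each of the other 5 mice was lower in AAR than in its own RM library. At starts the same held, with 9.51 in AAR and 8.93 in RM for mouse 23, against 8.71 to 9.04 in AAR and 9.08 to 9.38 in RM for the other 5.

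**Figure D2:**
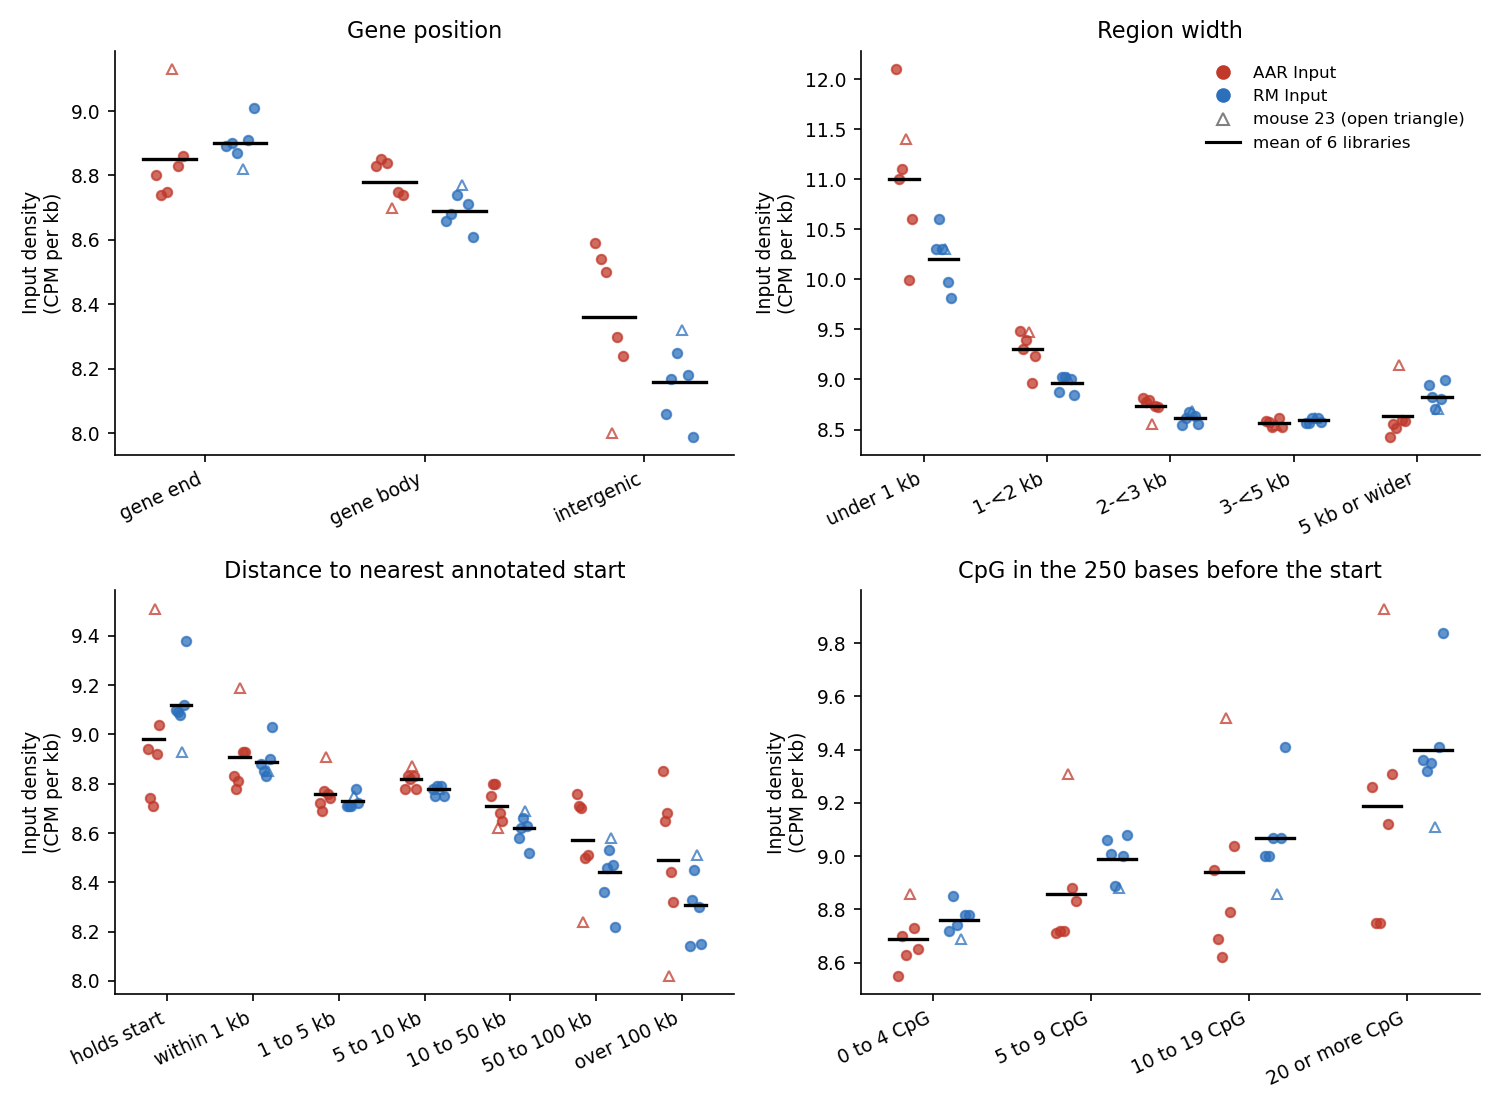
Input density in CPM per kb (y axes, not starting at 0) by gene position, region width, distance to the nearest annotated start and CG count before the start; each point is a library (red AAR, blue RM, open triangle mouse 23) and each bar the mean of 6. Density falls from gene ends (8.85 and 8.90) to intergenic regions (8.36 and 8.16). The AAR library of mouse 23 is the highest of its group at starts (9.51) and the lowest over 100 kb away (8.02).

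Between biopsies, no share of counts by gene position passed the test. Gene ends held 42.9% ± 0.639 of AAR counts and 43.4% ± 0.349 of RM counts, gene bodies 42.7% ± 0.288 and 42.6% ± 0.173, and intergenic regions 14.3% ± 0.362 and 14.1% ± 0.185 (SD, n = 6). The two-sided exact permutation p was 0.169, 0.247 and 0.147, with an adjusted p of 0.247 for each. Gene ends were lower in AAR in 5 of 6 mice, and gene bodies and intergenic regions higher in AAR in 5 of 6, mouse 23 being the exception. Without mouse 23 the log2 fold (AAR over RM) was -0.026 for gene ends and 0.011 for gene bodies (exact p = 0.00794 each, adjusted p = 0.0119), and 0.045 for intergenic regions (exact permutation, adjusted p = 0.0159). These tests ignore that AAR and RM come from the same mice. An exact sign-flip test of the pairs cannot reach 0.05 with a mouse left out. The ratio of gene end to intergenic density told the same: it was lower in AAR by 0.043 on the log2 scale with all mice (exact permutation, adjusted p = 0.171 over 4 ratios) and by 0.072 without mouse 23 (adjusted p = 0.0159). Since shares add up to the whole, the 3 classes cannot move independently. Mouse 23 was left out after its values had been seen.

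**Figure D3:**
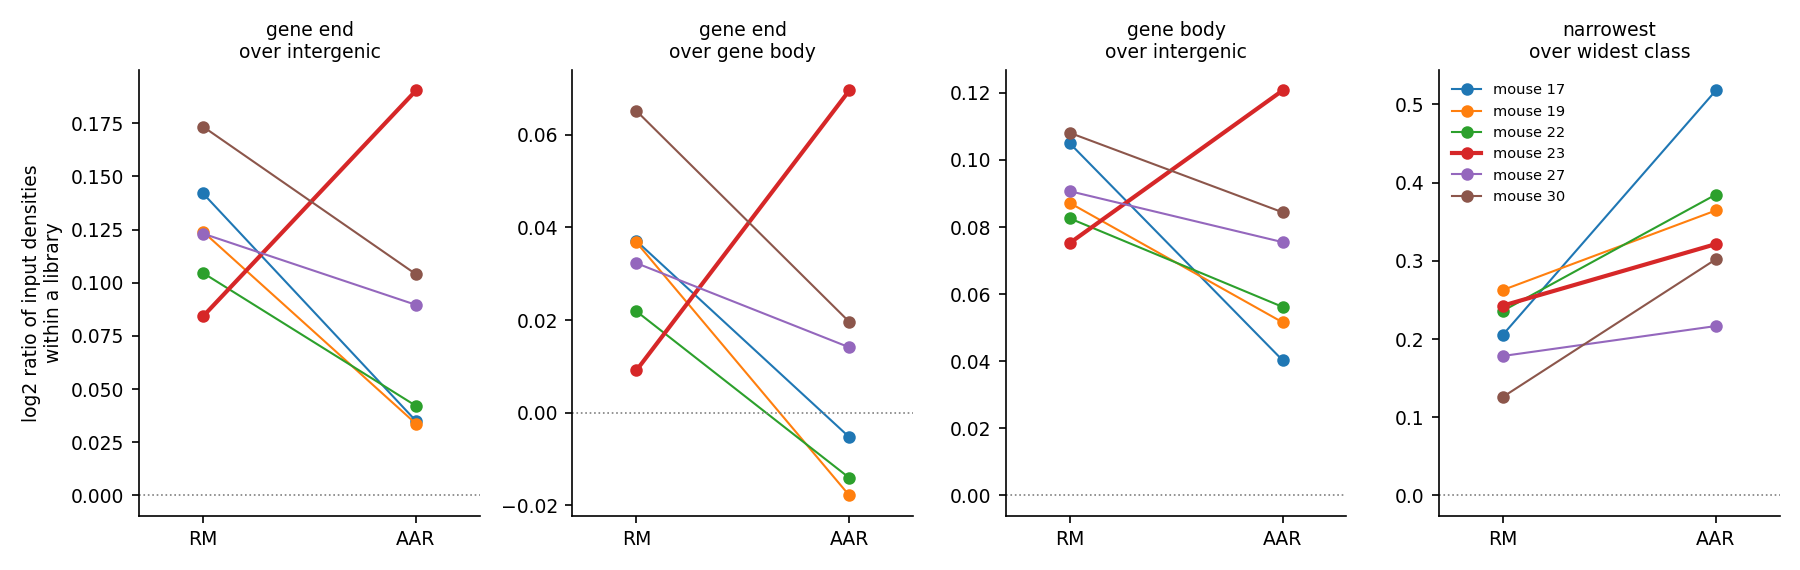
Log2 ratio of input densities within each library (y axis, a scale per panel), RM and AAR of the same mouse joined by a line. In the first 3 panels mouse 23 (thick red) rises from RM to AAR while the other 5 mice fall; in the narrow over wide panel all 6 mice rise.

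By width, input was densest in the narrowest regions. Regions under 1 kb had 11.0 ± 0.711 CPM per kb in AAR and 10.2 ± 0.277 in RM, those of 1 to under 2 kb 9.30 ± 0.197 and 8.96 ± 0.0779, those of 3 to under 5 kb 8.57 ± 0.0349 and 8.60 ± 0.0269, and those of 5 kb or wider 8.64 ± 0.252 and 8.83 ± 0.115 (SD, n = 6). The narrowest exceeded the widest class by 27.6% in AAR and 15.6% in RM, in 6 of 6 libraries of each (exact sign-flip permutation test, p = 0.0312, adjusted p = 0.0357). Only 400 narrow regions that overlap no other, with 0.274 Mb in all, stand behind the first value. With medians over regions the narrowest class was less raised, by 8.2% in AAR (adjusted p = 0.05) and 3.53% in RM (adjusted p = 0.156). The order by position was also seen within a width: in autosomal regions of 2 to under 3 kb, gene ends had 8.89 and 8.86 CPM per kb in AAR and RM and intergenic regions 8.37 and 8.15. The order by width did not hold within every position, since RM intergenic regions of 1 to under 2 kb had 8.23 and those of 5 kb or wider 8.39.

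The mean share of input in the narrow regions was slightly larger in AAR, in 5 of 6 mice, without passing the test over all listed regions. Regions under 1 kb held 0.310% ± 0.0201 of AAR counts and 0.288% ± 0.00767 of RM counts, those of 1 to under 2 kb 11.6% ± 0.222 and 11.2% ± 0.0953, and those of 5 kb or wider 17.9% ± 0.598 and 18.4% ± 0.298 (SD, n = 6). Of 5 width classes none passed over all listed regions, with an exact permutation p adjusted over the classes from 0.0541 to 0.169. In regions that overlap no other, the classes under 1 kb, 1 to under 2 kb and 3 to under 5 kb passed. Their adjusted p (unpaired exact permutation) was 0.0469, 0.0271 and 0.0271. The ratio of narrowest to widest density was higher in AAR by 0.14 on the log2 scale, in 6 of 6 mice (exact permutation p = 0.00866, adjusted p = 0.0346 over 4 ratios). This call did not last under other settings: the adjusted p was 0.416 with medians over regions and 0.125 with the mice as pairs. It also missed the threshold without mouse 17, 19, 22 or 30 (exact permutation, adjusted p = 0.127, 0.0952, 0.0952 and 0.127) and passed it without mouse 23 or 27 (adjusted p = 0.0238 and 0.0317). Without mouse 23, the share of regions of 5 kb or wider was lower in AAR by 0.062 and that of 2 to under 3 kb higher by 0.024 on the log2 scale (exact permutation, adjusted p = 0.0198 each). Without mouse 27, the classes under 1 kb, 1 to under 2 kb and 3 to under 5 kb passed (adjusted p = 0.0132 each). These tests with a mouse left out also ignore the pairing by mouse.

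Among autosomes, density ran from 8.45 ± 0.247 CPM per kb in AAR and 8.28 ± 0.162 in RM on chromosome 13 to 8.91 ± 0.0602 and 8.88 ± 0.033 on chromosome 2 (SD, n = 6). Neighbours in that order did not stand apart: chromosomes 2, 15, 11 and 19 lay between 8.87 and 8.91 in AAR, within their SD. Chromosomes with more protein-coding genes per Mb tended to have more input, with Pearson's r over the 19 autosomes of 0.30 in AAR and 0.46 in RM, and 0.55 with the median density over regions, a description over points that share their libraries and differ in base composition. In regions that overlap no other, the share of chromosome 4 passed between biopsies (log2 fold -0.0094, unpaired exact permutation, adjusted p = 0.0455). Over all listed regions no share by chromosome passed in 21 tests. The smallest exact permutation p was 0.0152, for chromosome 4 with 8.43% ± 0.0184 against 8.48% ± 0.0352 (SD, n = 6; adjusted p = 0.318).

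A few regions carried far more input than the rest, at overlapping levels in the 2 biopsies. Of the regions that overlap no other, 97.3% lay within a factor of 2 of the median of 8.92 CPM per kb, 13 lay above it and 886 below. The highest of at least 1 kb was in Gm36876 at chr11:109011200-109012199, at 151 CPM per kb. It had 120 to 179 CPM (median 149) in AAR and 132 to 184 CPM (median 148) in RM. A region at chr5:146259800-146261399 in Cdk8, encoding a kinase of the Mediator complex, had 109 to 160 CPM (median 130) in AAR and 129 to 166 (median 140) in RM. One at chr9:123461000-123462199 in Lars2, the mitochondrial leucyl-tRNA synthetase gene, had 63.1 to 93.1 CPM (median 77.7) and 66.7 to 107 (median 77.0). Their groups overlapped throughout, with log2 folds of -0.09, -0.10 and -0.12 and edgeR FDR 1.0. The next were in Muc3, a mucin gene (36.1 CPM per kb), at chr12:20226400-20234599 (27.7), at chr9:124255800-124257999 (26.1), in the coatomer gene Copg2 (22.6) and at chr13:12830800-12832199 (21.8). None of the 8 passed between the biopsies, where the log2 fold (AAR over RM) ran from -0.15 in Copg2 to 0.06 at chr9:124255800-124257999. Nor did any of the 8 pass the test among mice (edgeR FDR 0.6 to 1.0). At the other end, 110 regions of at least 1 kb had 0 counts in all 12 input libraries, which allows up to 1.21 to 2.33 CPM per library by counting error, and 95 of them also had 0 counts in all H3K9me2 libraries.

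Between mice, in contrast, regions on X, on Y and in 1 stretch of chromosome 17 differed. Of 44287 regions tested with the mouse terms of edgeR's quasi-likelihood fit, 57 passed (0.129%) and 2090 had an unadjusted p under 0.05 (4.72%). The 57 were 46 of 81 on X, 2 of 2 on Y and 9 of 44204 on autosomes. Of the autosomal 9, 6 lay together on chromosome 17. Without mouse 19 the count was 36 and without mouse 30 it was 34.

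The chromosome 17 stretch spans 164 kb at chr17:6420000-6583799 and holds Dynlt1b, encoding a dynein light chain, with the pseudogene Tmem181b-ps, Ppp1r2-ps5, Gm2808, Gm17880, Gm29719, Gm29721 and LOC115488814. The edges of the stretch are those of the outermost regions called there among mice. They were set by these input values and mark no measured boundary. Of 16 listed regions in the stretch 13 had a count. In mouse 23 the stretch had 1 count in the AAR input and 1 in the RM input. In AAR input the other mice had 94 (mouse 17), 97 (mouse 19), 124 (mouse 22), 123 (mouse 27) and 232 counts (mouse 30), and in RM input 82, 108, 143, 109 and 220 counts in the same order. As CPM, mice 17, 19, 22 and 27 had 75.4 ± 6.04 CPM in AAR and 70.6 ± 9.29 in RM (SD, n = 4), and mouse 30 had 127 and 130, or 1.68 and 1.84 times their mean. The H3K9me2 libraries, which had no part in finding the stretch, gave the same order. Mouse 23 had 2 and 0 counts there (AAR and RM; 0 allows up to 4.36 CPM), mouse 30 had 113 and 166 CPM, and the other 4 had 68.0 ± 3.63 and 77.2 ± 12.0 CPM (SD, n = 4).

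Beyond both edges mouse 23 had reads again, though at a lower CPM than any of mice 17, 19, 22 and 27 in 3 of 4 comparisons. In the listed regions of the right flank it had 82 and 54 input counts (33.1 and 31.9 CPM, against 44.0 ± 5.78 and 43.2 ± 9.07 in the other 4 mice), and in the left flank 8 and 15 counts (3.23 and 8.87 CPM, against 8.96 ± 2.88 and 6.44 ± 1.45; SD, n = 4). Mouse 30 had 52.7 and 37.2 CPM in the right flank, 1.2 and 0.86 times the mean of the other 4. In the left flank it had 13.2 and 11.2 CPM from 24 and 19 counts, 1.47 and 1.74 times their mean, so its excess did not plainly stop at the left edge. The region of smallest p in the stretch, over Gm2808 and Gm17880 at chr17:6518400-6522599, had 0 and 0 counts in mouse 23, 40 and 47 in mouse 30 and 11 to 33 in the other 4 (edgeR FDR 1.22e-12). Without mouse 23 none of these 6 regions passed (edgeR FDR 0.0548 to 0.981). Dynlt1b belongs to a cluster of near-identical copies, so reads shared with a copy may be missing or split. Neither counts nor labels tell a change in copies from a change in how reads were placed; that was not tested.

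**Figure D4:**
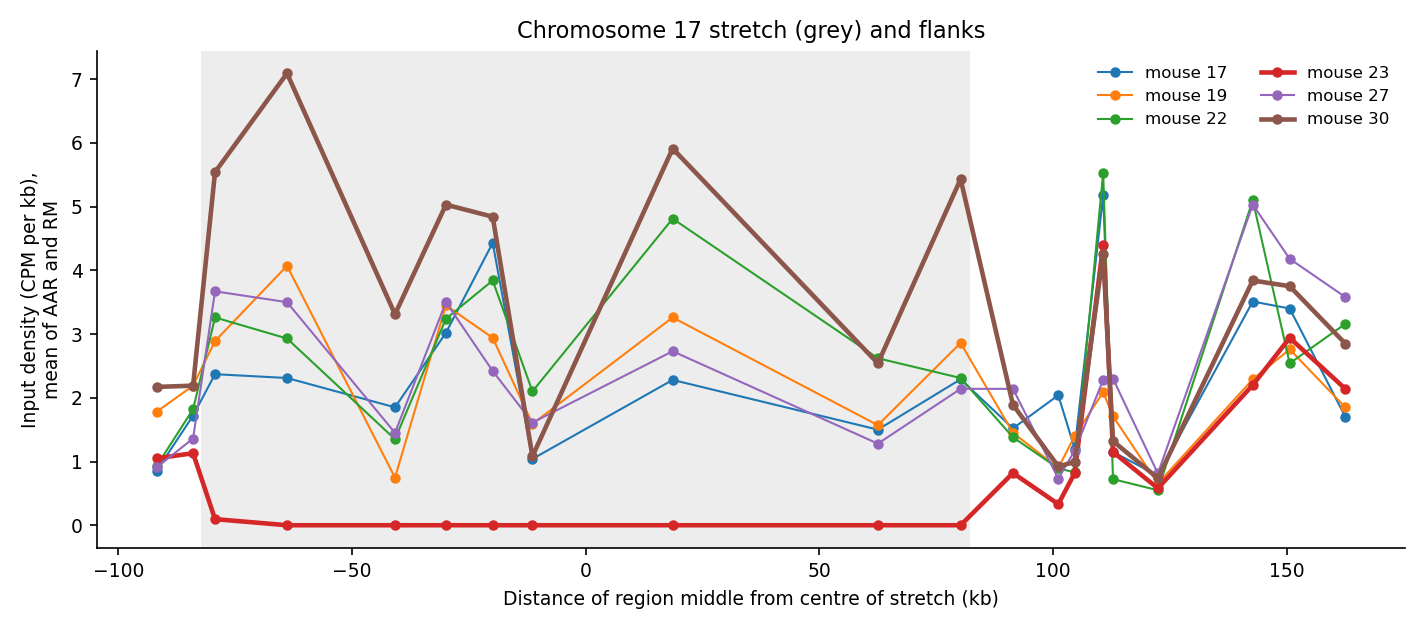
Input density in CPM per kb, mean of the AAR and RM libraries of each mouse, by distance in kb of each listed region from the middle of the chromosome 17 stretch (grey band). Mouse 23 (red) stays at or near 0 across the 164 kb and has reads outside it (33.1 and 31.9 CPM in the right flank); mouse 30 (brown) is the highest at most points inside.

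The other autosomal calls were single regions. In Lrmda at chr14:22545600-22547399, mice 17, 19 and 22 had 28.5, 29.5 and 26.4 CPM in AAR and mice 23, 27 and 30 had 5.65, 15.4 and 9.87. In RM the first 3 had 17.8, 25.0 and 28.8 CPM and the last 3 17.7, 16.6 and 12.4 (edgeR FDR 0.0039). Mouse 23 was the lowest in AAR only, and the call was lost without mouse 22 or 30 (edgeR FDR 0.0981 and 0.121). At the intergenic chr7:138426000-138428199, nearest Tcerg1l, mice 19 and 23 had 22.5 and 22.2 CPM in AAR and 17.8 and 23.7 in RM, above 7.13 to 11.5 and 7.11 to 10.7 in the other 4 (edgeR FDR 0.00413; 0.318 without mouse 23 and 0.0586 without mouse 30). Zfp978, a zinc finger gene of a repeated family on chromosome 4, ranged from 159 CPM in mouse 23 to 367 in mouse 19 in AAR, and from 220 to 317 in RM (edgeR FDR 0.0338). The biopsies did not give the same order, since mouse 23, the lowest in AAR, had 305 CPM in RM, exceeded there only by mouse 22. It was not called when autosomes were fitted alone (edgeR FDR 0.193) or without mouse 19, 22, 27 or 30 (edgeR FDR 0.202 to 0.991).

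On Y the 2 tested regions, chrY:90803200-90806199 and chrY:90807200-90808199, both lie by Gm33272 in the pseudoautosomal end. The wider had 102 and 77 counts (AAR and RM input) in mouse 19, 130 and 135 in mouse 22, 22 and 41 in mouse 23, 16 and 18 in mouse 27, 1 and 3 in mouse 17 and 2 and 3 in mouse 30 (edgeR FDR 9.5e-39). Mice 19 and 22 were high, 23 and 27 intermediate and 17 and 30 near 0, in both biopsies. The H3K9me2 libraries kept that order, with 35 and 36 counts in mouse 19, 44 and 33 in mouse 22, 23 and 22 in mouse 23, 15 and 15 in mouse 27 and at most 1 in mice 17 and 30. The order did not follow the labelled sex, since mouse 19 is female. The pseudoautosomal end lies on X as well as on Y, so these counts do not tell the sex. The X input of mouse 19, given next, was that of a female.

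Sex separated the X chromosome cleanly. X density over autosome density was 0.722, 0.718 and 0.635 in the AAR inputs of females 17, 19 and 30 and 0.302, 0.241 and 0.296 in males 22, 23 and 27. In RM it was 0.566, 0.596 and 0.511 in females and 0.315, 0.308 and 0.289 in males. Every female library lay above every male one. Per mouse, the ratio was 0.621 ± 0.0452 in females and 0.291 ± 0.018 in males (SD, n = 3), 2.13-fold higher in females, with a two-sided exact permutation p of 0.1, the smallest that 3 against 3 can give. Every library thus fell on the side of its labelled sex.

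In the fit of females against males, on counts summed over both inputs of a mouse, 60 of 45775 regions passed (0.131%), and 2066 had an unadjusted p under 0.05 (4.51%). Of 86 tested X regions 59 passed, 58 higher in females, and the median log2 fold (female over male) over X was 1.11. Of the 59, 43 were also among the 46 X regions called among mice (72.9% and 93.5% of each). A region at chrX:135041800-135056399 in 3632454L22Rik had 65.1, 66.3 and 56.6 CPM in females 17, 19 and 30 and 30.8, 32.9 and 31.9 CPM in males 22, 23 and 27, a log2 fold of 0.96 (SE 0.10, edgeR FDR 7.47e-11). One at chrX:140838800-140842599 near Gm7091 had 41.0 ± 1.71 and 15.9 ± 4.65 CPM (SD, n = 3; log2 fold 1.39), one at chrX:99163200-99166399 near Efnb1, an ephrin gene, 31.5 ± 4.75 and 13.4 ± 3.35 CPM (1.26), and one at chrX:140518000-140522399 in Gm39538 36.7 ± 4.91 and 18.4 ± 1.52 CPM (1.01).

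A single X region was lower in females, chrX:169994600-169994999 nearest Mid1, a gene that spans the edge of the pseudoautosomal region in C57BL/6. It had 1, 3 and 0 counts in females 17, 19 and 30 and 16, 15 and 13 in males 22, 23 and 27, both inputs summed. It lost its call with DESeq2 (adjusted p = 0.191) and without mouse 30 (edgeR FDR 0.0968). A single autosomal region passed of 45687 tested, the intergenic chr11:84746200-84748399 nearest 1700109G15Rik. It had 23.7, 32.1 and 24.7 CPM in females and 17.8, 13.2 and 17.2 CPM in males, a log2 fold of 0.75 (SE 0.16, edgeR FDR 0.00794), and lost its call with DESeq2 (adjusted p = 0.286) and without mouse 19 or mouse 23 (edgeR FDR 0.612 and 0.306). No Y region was called, and the Y regions had 1 to 129 counts in the female libraries and 31 to 181 in the male.

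**Figure D5:**
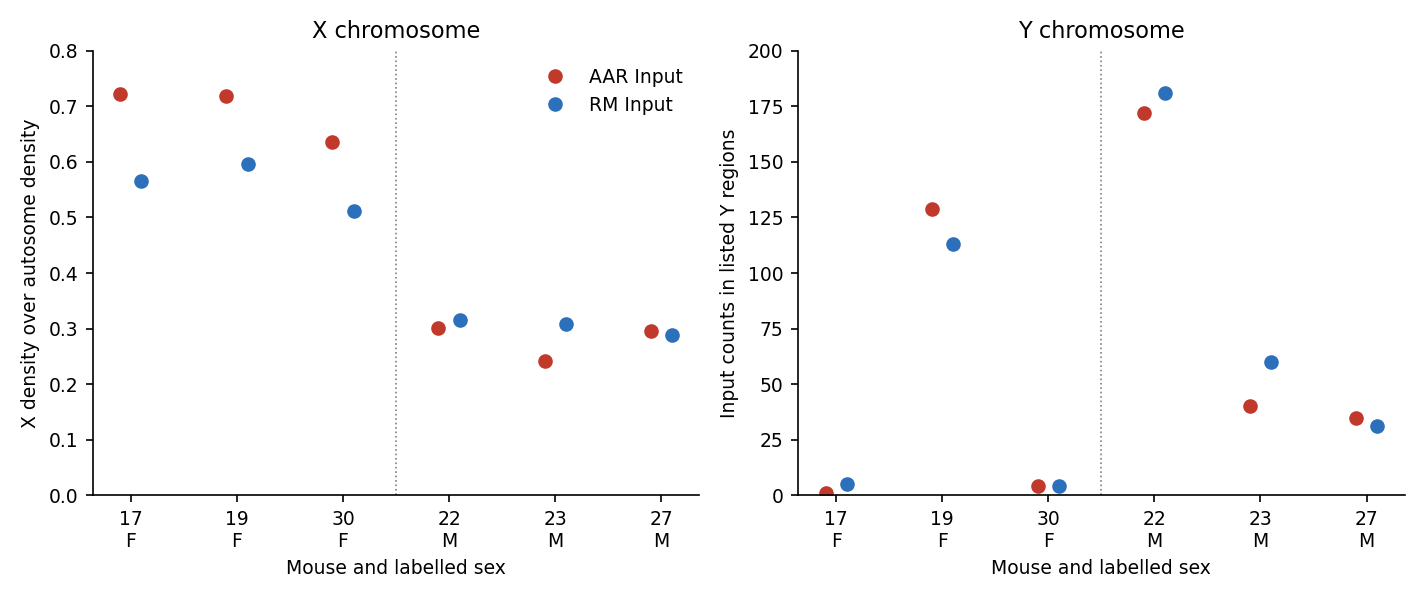
X density over autosome density (left) and counts in the listed Y regions (right) in each input library, by mouse and labelled sex (F, M; red AAR, blue RM). Female libraries sit at 0.511 to 0.722 on the left and male ones at 0.241 to 0.315, while on the right female mouse 19 lies with the males.

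The X ratio also differed in value between the biopsies of a mouse, most in females and in male 23, and passed no test. Its log2 fold (AAR over RM) was 0.35, 0.27 and 0.31 in females 17, 19 and 30 and -0.06, -0.35 and 0.03 in males 22, 23 and 27. The mean was 0.31 ± 0.04 in females and -0.13 ± 0.20 in males (SD, n = 3), and the exact permutation p of that difference, 0.1, is the smallest 3 against 3 can give. Over all 6 mice the mean was 0.09, higher in AAR in 4 of 6 (exact sign-flip permutation p = 0.562). In the interaction fit 0 of 78 tested X regions passed (edgeR), 14 had an unadjusted p under 0.05, and 65 had a positive value. Over all regions of that fit 6.86% had an unadjusted p under 0.05. In the fit of AAR against RM, 66 X regions were tested and none passed. Their median log2 fold was 0.16, with 51 above 0, beside a median of 0.0067 over all tested regions. X regions share the same libraries, so their counts are not independent.

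Over the genome, the effect of the biopsy differed between the sexes at 1 of 43774 regions (0.00228%; edgeR interaction term), with 3003 at an unadjusted p under 0.05 (6.86%). The region is chr9:89712400-89715999, intergenic and nearest Tmed3, which encodes a cargo receptor of early secretion. In females 17, 19 and 30 its AAR input was 35.4, 39.6 and 36.2 CPM and its RM input 12.8, 23.0 and 17.7. In males 22, 23 and 27 AAR was 30.4, 19.8 and 21.6 CPM and RM 32.2, 29.0 and 33.9. AAR was thus the higher biopsy in 3 of 3 females and the lower in 3 of 3 males, with an interaction of 1.48 on the log2 scale (SE 0.28, edgeR FDR 0.0437). The region was picked by this test on the same values, so the split by sex describes it and supports nothing. The call rested on most mice: left out one at a time, mice 17, 19, 23, 27 and 30 each ended it (edgeR FDR 0.745, 0.122, 0.459, 0.338 and 0.24), and mouse 22 did not (FDR 0.0209). In the H3K9me2 libraries, females 17, 19 and 30 had 70.2, 64.8 and 43.0 CPM in AAR and 52.5, 57.3 and 49.9 in RM, and males 22, 23 and 27 had 43.2, 41.0 and 52.1 in AAR and 36.1, 49.4 and 48.7 in RM. AAR was the higher there in 2 of 3 females and 2 of 3 males, which was not tested. With the mouse as block 4 regions passed, this one (edgeR FDR 0.00663) and, named after their values were seen, one in Gm42346 at chr4:145447400-145450599 (FDR 0.000986), one over Zfp981 and Zfp993 at chr4:146530400-146540199 (FDR 0.0191) and one at chr5:75353800-75356599 nearest Gm18345 (FDR 0.0191). Without the block these 3 did not pass (edgeR FDR 0.0815, 0.437 and 0.0815). With a mouse left out, and no block, Gm42346 and the region nearest Gm18345 passed only without mouse 22 (edgeR FDR 0.0064 and 0.0212), and the region over Zfp981 in no case (FDR 0.0845 to 0.871). At Zfp981, male 27 had 68.3 CPM in AAR and 57.8 in RM and female 30 had 46.1 and 51.3, against the direction of the other mice of their sex. In H3K9me2, Gm42346 was higher in AAR in females 17, 19 and 30 (83.6, 82.8 and 43.0 against 69.9, 61.9 and 33.6 CPM). It was lower in AAR in males 22, 23 and 27 (55.2, 39.3 and 51.1 against 97.0, 77.0 and 58.6 CPM). At Zfp981 all mice kept their input direction in H3K9me2. Nearest Gm18345, females 19 and 30 did not (36.0 and 29.7 CPM in AAR, 43.3 and 34.6 in RM), while the other mice did. None of this was tested.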

How the data were processed

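Input DNA was sequenced from 12 biopsies of 6 mice. The authors deposited whole-number counts per region and library in build mm10, with a log2 fold change, log2 mean CPM, p-value and FDR per region; Bowtie2 2.2.2, SICER 1.1 and edgeR are named without roles, per the submitters' processing notes, and duplicate handling is not given in the sources used here. Regions wholly covered by another hold no count, and partly covered ones understate it, in every library. Counts were fitted with edgeR 4.0.16 (R 4.3.3; TMM, filterByExpr, quasi-likelihood, two-sided, Benjamini-Hochberg FDR 0.05), with DESeq2 1.42.0 as an alternative; the tests were checked on simulated data. CPM divides by the total in listed regions, so depth outside them is unknown, and intervals and floors (3 counts) cover counting error only. Shares and ratios were tested by exact permutation, on log2 values. Between biopsies these tests did not pair the libraries by mouse, except with the mouse as block. Genes and promoters are RefSeq's for GRCm38.p6. A mouse number marks the same animal in both biopsies, so the numbers pair the samples; deviations of same-mouse libraries correlated from -0.085 to 0.026. Named regions are the 6 of smallest p each way, called autosomal and Y regions, the first 4 on X, the 8 densest, and from lists the 2 highest members and the lowest; the 5 least dense are among 110 tied at 0. Classes by start distance and CG count were added after seeing the data. Alternatives were the mouse as block, other size factors, no TMM, no filter, autosomes only, regions that overlap no other and each mouse left out. Members, lists and tests were chosen with earlier results of these data known.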

Additional observations from a re-analysis of the deposited data

Results flagged for a closer look

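Of 114 groups of 6 library values examined for a sample far from its others, 11 held one (9.65%). Chance alone gives about 1 in 20 where groups are independent. These groups overlap, reuse the same 12 libraries and include regions picked by p, so no excess can be read from the count. In 6 of the 11 the far sample was the AAR library of mouse 23. Its gene body share was 42.2% against 42.7% to 43.0% in the other 5, its share in regions of 2 to under 3 kb 32.0% against 33.1% to 33.2%, and its share in regions of 5 kb or wider 19.1% against 17.4% to 17.8%. Its density was 9.19 CPM per kb within 1 kb of a start (8.78 to 8.93 in the others), 8.91 at 1 to 5 kb (8.69 to 8.77) and 9.31 over promoters with 5 to 9 CG (8.71 to 8.88). The RM library of mouse 30 was far from its group 3 times, with 3.14% of counts on chromosome 19 (3.07% to 3.09%), 9.03 CPM per kb within 1 kb of a start (8.83 to 8.90) and 12.4 CPM in the region nearest Bpifa2 (7.11 to 9.04). The RM library of mouse 22 had 23.7 CPM in the Kcnn3 region (17.3 to 19.5), and that of mouse 19 had 49.3 CPM in the Slit1 region (37.9 to 41.3). The region nearest Tmed3 was singled out because the biopsy effect differed between the sexes, by 1.48 on the log2 scale. The part that depth or chromatin preparation has in these values was not tested.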

How the results depend on the processing

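With 0 regions, windows and genes called between the biopsies, all settings gave 0 except that leaving out 1 mouse gave 0 to 1 genes (1 without mouse 23). The log2 fold of the 12 regions named between biopsies kept its sign, uncalled, in 153 of 153 alternatives. They were picked by their p in the main fit of the same counts, so the kept sign supports nothing. Among mice, 8 regions were called with autosomes only, and 34 (without mouse 30) to 58 with a mouse left out. Between the sexes DESeq2 called 37 regions, and 44 to 62 were called with a mouse left out. The biopsy by sex count was 4 with the mouse as replicate block, and 0 to 3 with a mouse left out, an alternative added after seeing the data. The block gave no other call that differed for counts or shares. Position classes passing numbered 0 to 3 and width classes 0 to 3 with a mouse left out; in regions that overlap no other, 3 width classes and 1 chromosome (4) passed. With a mouse left out the exact sign-flip test cannot reach 0.05, so only the size is read. The log2 ratio of gene end to intergenic density was then 0.061 to 0.092 in AAR and 0.116 to 0.133 in RM, gene end to gene body -0.0007 (without mouse 23) to 0.017 and 0.027 to 0.039, gene body to intergenic 0.062 to 0.078 and 0.088 to 0.095, and narrowest to widest 0.32 to 0.38 and 0.20 to 0.23. With medians over regions, gene end to intergenic was 0.078 in AAR and 0.105 in RM, gene end to gene body 0.036 in RM, gene body to intergenic 0.054 and 0.069, and narrowest to widest 0.11 and 0.050, none with an adjusted p under 0.05. Of AAR against RM differences in these ratios, the narrowest to widest one was 0.064 with medians, 0.14 with the replicate block (adjusted p = 0.125) and 0.11 to 0.16 with a mouse left out. The others were -0.072 to -0.030 (gene end to intergenic), -0.039 to -0.016 (gene end to gene body) and -0.033 to -0.011 (gene body to intergenic), passing without mouse 23 only. The cause was not tested. At this depth, single regions with a fitted log2 difference of 0.87 did not pass adjustment.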
